A study of Rattus norvegicus with 20 samples.

Results

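Gene expression in the livers of vehicle-treated rats was described on 5 arrays of the 20 in the series, and on the differences between those 5. The members were the arrays labelled 0 mg/kg. The values of these arrays chose the genes described: where a gene had several probe sets, the one with the largest vehicle mean stood for it (14217 genes in all), the 50 genes with the highest mean formed the highest-signal list, and the 50 genes with the largest standard deviation (SD) among the 5961 genes with a mean over 8 formed the most variable list. The means and SDs of the members therefore stand as descriptions, without tests.

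RNA came from livers of male rats of the Harlan Sprague Dawley stock, which is outbred. The vehicle rats received corn oil by gavage, the 5 other groups received the flame retardant and plasticiser triphenyl phosphate in corn oil at 55, 110, 220, 440 or 881 mg/kg with 3 arrays each, and all groups received 4 daily doses before the left liver lobe was sampled on day 5. The dose of 440 mg/kg is the label's and differs from the design text by 1 mg/kg. The rats' ages were not stated in the labels. Nothing there says that the arrays of a group came from separate animals, so SDs and p-values measure how far these samples differ, which may be technical. Values are log2 signal, on which a difference of 1 is a 2-fold difference.

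Liver parenchyma consists mostly of hepatocytes, which secrete most plasma proteins, break down amino acids, make bile acids from cholesterol and oxidise and conjugate foreign compounds. Many hepatocyte genes respond within hours to feeding, glucocorticoids, insulin, growth hormone and the light cycle, and sex-dependent genes follow the pattern of growth hormone release. Major histocompatibility complex (MHC) class II molecules, paired alpha and beta chains that present peptides to T cells, belong to antigen-presenting cells such as the Kupffer cells, the macrophages of the liver.

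The vehicle arrays carried the markers of liver. All 8 measured hepatocyte markers had a mean over 8, among them the transcription factor Hnf4a at 12.64 ± 0.14 and the asialoglycoprotein receptor Asgr1 at 12.46 ± 0.05 (mean ± SD, n = 5, as for all vehicle values here). All 7 Kupffer markers also exceeded 8 (Clec4f, a Kupffer cell lectin, had 11.87 ± 0.17), as did 6 of 7 endothelial and 3 of 8 stellate cell markers. Of the blood cell markers, 0 of 7 lymphocyte and 0 of 3 neutrophil genes exceeded 8. Single members of other lists did: Cela1 of the pancreas list (10.65), Myh1 of the muscle list (12.29), Epcam of the bile duct list (9.23), Hbb of the red cell list (12.92) and Cfd and Cidec of the fat list (8.69 and 10.22), whereas the acinar lipase Pnlip (5.80), skeletal actin Acta1 (3.82), keratin Krt19 (6.57) and adiponectin Adipoq (4.98) were low. In bulk tissue, fewer cells of a type and less RNA per cell cannot be told apart.

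The 5 arrays were close to one another. The median correlation of each array with the others was 0.994 to 0.995 over the 31042 probe sets that were not controls. Between 14 and 51 of the genes with a mean over 8 differed more than 2-fold between any pair. The median SD of these 5961 genes was 0.113, which is 1.08-fold, and 85.8% of them varied by less than 0.5 from the lowest to the highest array. A range over 1 was found for 115 genes (1.93%), an SD over 0.5 for 58 (0.973%) and an SD over 1 for 5. The median SD fell from 0.123 for genes with a mean between 8 and 9 to 0.0386 for those over 14, as the plot of spread against signal shows.

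**Figure D1:**
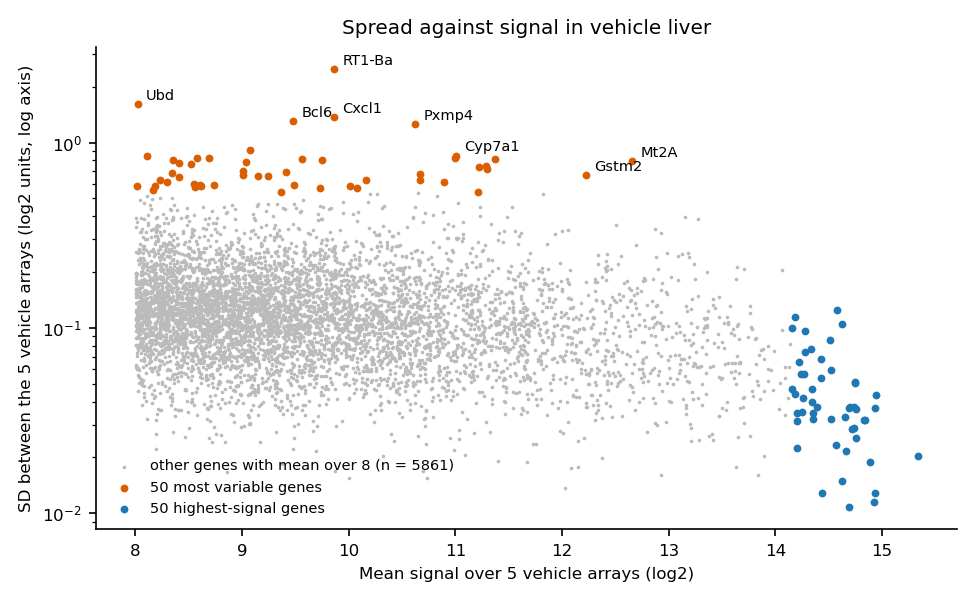
Each point is a gene; the horizontal axis is its mean log2 signal over the 5 vehicle arrays and the vertical axis (log scale) the SD between them. The 50 highest-signal genes (blue) have SDs of 0.0108 to 0.125, the 50 most variable genes (orange) have SDs of 0.541 to 2.50, and RT1-Ba stands above all others.

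The highest-signal genes were mostly plasma proteins. Of 56 measured members of a list of secreted plasma proteins, 27 were among the 50, against 6 of 42 cytochromes P450 of families 1 to 4 and 1 of 46 cytosolic ribosomal proteins. Their means ran from 14.15 to 15.34 and their SDs had a median of 0.0372. Of the 50, 48 lay below the median SD of the genes with a mean over 8. These SDs belong to the brightest probe sets. Other probe sets of the same genes mostly varied more, such as those of Car3 (13.18 ± 0.48) and Selenop (8.88 ± 0.25). That of Eef1a1 (14.04 ± 0.026) and the Rup2 probe sets at 14.77 and 14.78 (SDs of 0.013 and 0.029) varied less. Whether signal near the top of the scale narrows the SDs was not tested. Probe sets differ in how well they bind, so the order of genes is an order of signal and not of RNA amount.

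Albumin (Alb), the main plasma protein, gave 15.35, 15.30, 15.35, 15.34 and 15.34 on vehicle arrays 1 to 5. Array 2 was the lowest. The vitamin D-binding protein Gc gave 14.93, 14.91, 14.94, 14.92 and 14.94. Retinol-binding protein Rbp4 gave 14.69, 14.67, 14.70, 14.69 and 14.69, an SD of 0.011 and the smallest among the 50. Transthyretin (Ttr), carrier of thyroid hormone and retinol-binding protein, gave 14.89, 14.92, 14.88, 14.86 and 14.89. These carriers differed between arrays by no more than 1.04-fold.

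Lipoprotein components followed, with 8 of 13 measured apolipoproteins in the list. Apoc3, an inhibitor of lipoprotein lipase, gave 14.93, 14.93, 14.93, 14.93 and 14.96. Apoe, the ligand of remnant receptors, gave 14.77, 14.71, 14.77, 14.76 and 14.78. Apoc1 gave 14.65, 14.62, 14.64, 14.70 and 14.68, and Apoh, a phospholipid-binding glycoprotein, gave 14.66, 14.64, 14.70, 14.67 and 14.66. Apoe, Apoc1 and Apoh were lowest on array 2. Apob had 14.44 ± 0.013, Apoc2 14.21 ± 0.035, Apoa2 14.18 ± 0.11 and Apoa1, the main protein of high-density lipoprotein and the 50th gene, 14.15 ± 0.099. The 51st was the copper carrier Cp at 14.14.

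Coagulation proteins, protease inhibitors and acute-phase proteins formed the next group. The fibrinogen alpha chain Fga gave 14.68, 14.75, 14.70, 14.79 and 14.79, and the gamma chain Fgg gave 14.70, 14.72, 14.69, 14.76 and 14.74. Both were highest on array 4. Fgb, the beta chain, had 14.57 ± 0.023. Serpina1, the elastase inhibitor alpha-1-antitrypsin, gave 14.80, 14.81, 14.87, 14.86 and 14.86. Serpina3c gave 14.70, 14.77, 14.75, 14.75 and 14.72, and Serpina3l gave 14.72, 14.70, 14.73, 14.72 and 14.64. These related serpins may share probes, so their values can be mixed. Complement C3 gave 14.86, 14.78, 14.85, 14.84 and 14.83. The haemoglobin scavenger Hp (haptoglobin) gave 14.74, 14.66, 14.79, 14.75 and 14.78. Array 2 was lowest for both. Ambp, precursor of alpha-1-microglobulin and bikunin, gave 14.76, 14.78, 14.80, 14.70 and 14.74, and Itih3, a heavy chain that binds hyaluronan, gave 14.68, 14.64, 14.74, 14.69 and 14.68. The mineral-binding glycoprotein Ahsg gave 14.71, 14.79, 14.76, 14.73 and 14.70. The highest array was 3 for Itih3 and Ambp and 2 for Ahsg.

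Outside the plasma proteins, the mitochondrially encoded cytochrome oxidase subunit COX2 gave 14.91, 14.98, 14.89, 14.99 and 14.95, while COX1 had the largest SD of the list (14.58 ± 0.13). The urinary protein gene Rup2 gave 14.92, 14.99, 14.93, 14.93 and 14.89. The enzymes of foreign-compound and antioxidant metabolism in the list were Mgst1, Gpx1, Ugt2b and the P450s Cyp3a2, Cyp2c11, Cyp2e1, Cyp2c6v1, Cyp2d2 and Cyp2c13, with SDs from 0.015 to 0.096. The first of these, the membrane-bound glutathione transferase Mgst1, had 14.63 ± 0.015. Cyp2c11, the male-specific steroid hydroxylase of rat liver, had 14.28 ± 0.096 and was highest on array 1 (14.45). P450s of the 2C family and glucuronosyltransferases have near-identical relatives, and their signals may be shared. Car3, a carbonic anhydrase abundant in male rat liver, had 14.62 ± 0.11 and was also highest on array 1.

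The most variable genes had SDs of 0.541 to 2.50 (median 0.676), means of 8.01 to 12.66 (median 9.30) and a median range of 1.74, which is more than 3-fold. By known function, 10 belonged to immunity and antigen presentation, 5 to the response to amino acid shortage, 11 to hormone responses and signalling, 7 to sex-dependent and foreign-compound metabolism, and 8 to sterol, bile acid and lipid metabolism; 9 fell in none of these groups. These groups were formed after the genes were known, and the mitochondrial carrier Slc25a25 was counted with the lipid genes. Array 3 was highest for 17 and array 1 lowest for 20 of the 50; over all 5961 genes with a mean over 8, array 3 was highest for 34.4% and array 1 lowest for 33.6%. The 3' minus 5' difference of the Gapdh control, a sign of RNA quality, was 0.82 on array 1 and 0.99 on array 5 against 1.25 to 1.35 on the others. The beta-actin control split alike (1.67 and 1.95 against 2.22 to 2.44). The hexokinase control did not, at 1.89, 1.90, 1.67, 1.80 and 1.75 on arrays 1 to 5. The part of RNA quality in the spread was not tested.

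**Figure D2:**
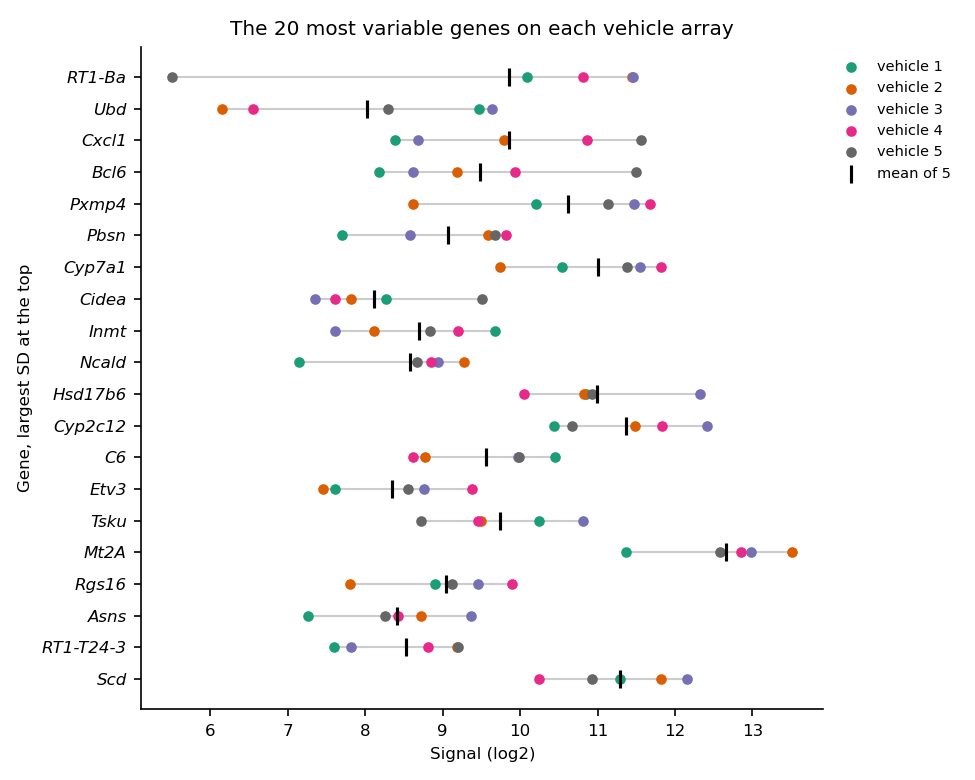
Log2 signal of the 20 most variable genes (rows, largest SD at the top) on each vehicle array (coloured points), with the mean of the 5 as a black bar and a grey line over the range. RT1-Ba on array 5 (5.51) lies far below its 4 other values (10.09 to 11.46), while Ubd splits into 2 low and 3 higher arrays.

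The MHC class II gene RT1-Ba had the largest SD, on 1 of its 4 probe sets. Because the leading probe sets of RT1-Ba and RT1-Bb, the alpha and beta chain of the same class II molecule, ran in opposite orders, their promoters are shown: the 150 bases before each start, from RefSeq on GRCr8 (reference strain, not these rats), at chr20:4576907-4577056 (plus strand) and chr20:4604119-4604268 (minus strand). Capitals mark CTGATTGG, the Y box of class II promoters.
RT1-Ba: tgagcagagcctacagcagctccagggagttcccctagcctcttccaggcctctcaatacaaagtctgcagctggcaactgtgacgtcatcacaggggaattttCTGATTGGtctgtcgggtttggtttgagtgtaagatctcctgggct
RT1-Bb: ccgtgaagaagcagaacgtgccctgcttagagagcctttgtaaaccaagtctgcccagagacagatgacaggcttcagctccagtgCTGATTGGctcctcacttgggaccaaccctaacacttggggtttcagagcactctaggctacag
In a search of both strands, the 250 bases before the start held this motif in 4 of the 4 class II genes searched (RT1-Ba, RT1-Bb, RT1-Da and RT1-Db1) and in 3.19% of 33469 promoters. The match is a description of the letters.

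RT1-Ba gave 10.09, 11.44, 11.46, 10.81 and 5.51 on vehicle arrays 1 to 5, a 61.6-fold range with an SD of 2.50. Array 5 was low and the other 4 arrays lay between 10.09 and 11.46. The gene has 3 further probe sets, and the first of them ran the other way, at 8.61, 7.64, 7.63, 8.97 and 9.70, while the other two had SDs of 0.24 and 0.20. RT1-Bb, whose mean of 7.03 left it outside the list, gave 7.42, 5.11, 5.24, 7.89 and 9.50. Both were highest on array 5, where the leading RT1-Ba probe set was lowest. A second, dimmer RT1-Bb probe set gave 5.48, 6.13, 6.10, 5.67 and 5.24, lowest on array 5 like the leading RT1-Ba probe set. The split thus lay between probe sets of 1 gene as well as between the chains. The other class II genes had smaller SDs, of 0.26 for RT1-Da, 0.24 for RT1-Db1, 0.22 for RT1-DMb and 0.25 for the invariant chain Cd74, where 0.226 was the 90th percentile of the genes with a mean over 8. These were not lowest on array 5: RT1-DMb was highest there (9.21), and RT1-Da, RT1-Db1 and Cd74 were lowest on array 1. On array 5 all 7 Kupffer markers were at their lowest, with a mean level of 9.94 against 10.10 to 10.38 on the others. The same held for 6 of 8 stellate cell markers. Array 5 was lowest for 14.6% of the genes with a mean over 8 and 18.0% of all genes. The part of these cell markers in the RT1-Ba value was not tested.

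The dosed arrays had no share in the choice of genes. There RT1-Ba was 6.30 on replicate 1 of the 440 mg/kg group, where RT1-Bb was 8.07, and between 9.17 and 12.30 on the other 14 dosed arrays. With each dose group centred on its mean, the leading RT1-Ba probe set and RT1-Bb correlated at r = -0.73 (exact permutation p = 0.000386 within dose groups, two-sided; adjusted p = 0.00617 over 16 pairs of genes) and rho = -0.80 (exact permutation p = 0.000257, adjusted 0.00412) over 15 arrays. Without the 2 arrays farthest from the median, r was -0.71. The leading RT1-Ba probe set correlated with the next RT1-Ba probe set at r = -0.54 and rho = -0.43 (exact permutation p = 0.0970 and 0.208, adjusted 0.198 and 0.278), and that second probe set correlated with RT1-Bb at r = 0.76 and rho = 0.58 (exact permutation p = 0.0892 and 0.106, adjusted 0.198 and 0.212). These last relations did not pass. The pairs with RT1-Bb were added after its values were seen, and the permutations took no account of the replicate numbers. RT1-Ba was not called at any dose.

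**Figure D3:**
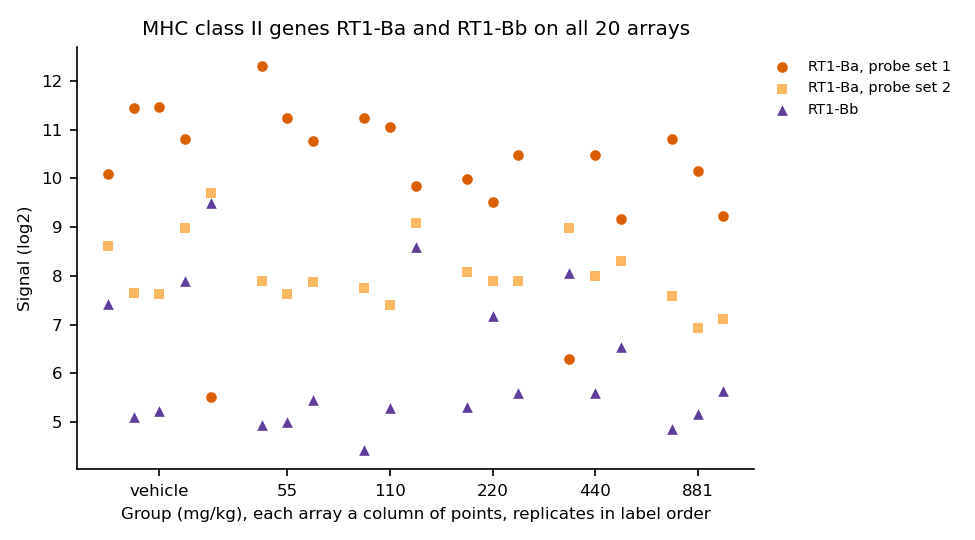
Log2 signal of RT1-Ba (leading probe set, orange circles; next probe set, light squares) and the leading RT1-Bb probe set (purple triangles) on all 20 arrays, grouped by dose in mg/kg. On vehicle array 5 and on replicate 1 of the 440 mg/kg group RT1-Bb lies above the leading RT1-Ba probe set, at 9.50 against 5.51 and 8.07 against 6.30.

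Other immune genes had their highest values on different arrays. Ubd, a ubiquitin-like protein induced by inflammatory cytokines, gave 9.46, 6.15, 9.64, 6.55 and 8.30. Arrays 2 and 4 were low and array 3 highest. Cxcl1, a chemokine that draws neutrophils, gave 8.39, 9.80, 8.69, 10.87 and 11.56. Complement C6, part of the membrane attack complex, gave 10.45, 8.78, 9.97, 8.61 and 9.99. The class I gene RT1-T24-3 gave 7.60, 9.18, 7.82, 8.81 and 9.20; arrays 1 and 3 were low and the rest higher. The remaining members included the protease inhibitor A2m, an acute-phase protein of the rat (10.16 ± 0.62), and the interferon-inducible GTPase Gbp7 (9.15 ± 0.66). Bcl3 (8.18 ± 0.58), Serpinb9b (8.34 ± 0.68) and Wfdc21 (9.36 ± 0.54) completed the group. Wfdc21 was the 50th gene (SD 0.541), and the 51st was Clic2 (SD 0.535). Of the 25 measured members of an interferon response list, which does not hold Gbp7, 0 were among the 50, and 15 were lowest on array 1, as were 26.1% of all genes.

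Genes of the amino acid response shared their highest and lowest array. This response, driven through the kinase GCN2 and the factor ATF4, raises enzymes of serine and asparagine synthesis. Asns, asparagine synthetase, gave 7.26, 8.72, 9.37, 8.42 and 8.25. Psat1 gave 8.06, 9.15, 10.00, 9.08 and 8.76, and Phgdh, the first enzyme of serine synthesis, gave 8.01, 9.14, 9.87, 9.13 and 8.92. Trib3, a pseudokinase that restrains ATF4, gave 8.03, 8.54, 9.57, 8.63 and 8.26, and the hepatic hormone Fgf21 gave 7.68, 8.36, 9.24, 8.97 and 8.48. Array 3 was highest and array 1 lowest for all 5 genes. A wider list of 24 measured response genes was drawn up after these values were seen and holds these 5, so it is not separate from them. Its median lay 0.41 above the genes' own vehicle means on array 3 and 0.24 below on array 1 (deviation -0.24). On array 3, 18 of 24 were highest, as were 25.2% of all genes and 34.4% of those with a mean over 8. Members with SDs below the list's median of 0.294 included Shmt2 (0.07), Atf4 (0.14) and Ddit3 (0.14). Of these 3, only Shmt2 lay below the median SD of the genes with a mean over 8 (0.113).

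The promoters of Trib3 and Fgf21 are shown because, of the 5 genes, these held the motif TGATGNAA of the C/EBP-ATF response element within 250 bases before the start, on either strand; 3.40% of all promoters held it. The 150 bases before each start are printed from RefSeq on GRCr8, at chr3:161275534-161275683 and chr1:105221377-105221526 (both minus strand). Capitals mark the match, which reads as the reverse complement.
Trib3: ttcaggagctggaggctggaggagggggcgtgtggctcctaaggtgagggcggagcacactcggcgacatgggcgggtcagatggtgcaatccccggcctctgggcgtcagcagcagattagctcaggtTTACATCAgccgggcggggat
Fgf21: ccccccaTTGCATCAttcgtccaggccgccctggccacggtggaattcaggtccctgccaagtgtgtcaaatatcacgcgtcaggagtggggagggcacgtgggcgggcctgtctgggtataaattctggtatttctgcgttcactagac
No match in the windows of Asns, Psat1 and Phgdh says only that these letters are not there. In the dosed arrays, dose-centred Asns correlated with Psat1 at r = 0.90 (rho = 0.82) and with Phgdh at r = 0.83 (rho = 0.70), with exact permutation p = 0.0139 and 0.0211 (rho, 0.0109 and 0.0343). Neither passed after adjustment over the 16 pairs (adjusted p = 0.0556 and 0.0675 for r, 0.0583 and 0.110 for rho), and without the 2 farthest arrays r was 0.75 and 0.59.

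Of the 11 hormone-response and signalling genes, a group formed after the values were seen, 7 were lowest on array 1, as were 20 of all 50 variable genes and 33.6% of the genes with a mean over 8. Mt2A, a metallothionein induced by metals and glucocorticoids, gave 11.37, 13.51, 12.98, 12.85 and 12.58. Fkbp5, a co-chaperone of the glucocorticoid receptor, had 9.25 ± 0.66 (8.17 on array 1, 9.18 to 9.82 on the others), the kinase Sgk1 10.67 ± 0.67 (9.90 on array 1), and the insulin-repressed Igfbp1 11.30 ± 0.72 (10.13 on array 1). All 4 were lowest on array 1, while the highest array was 2 for Mt2A, 3 for Sgk1 and 4 for Fkbp5 and Igfbp1. Of 17 genes of a glucocorticoid response list drawn up afterwards, 5 were among the 50 and 5 were lowest on array 1, as were 26.1% of all genes. In the dosed arrays Fkbp5 and Sgk1 had a dose-centred r of -0.23 (rho = -0.18, exact permutation p = 0.43 and 0.55).

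Transcription and signalling genes included Bcl6, a repressor that growth hormone lowers through STAT5. Bcl6 gave 8.18, 9.18, 8.62, 9.94 and 11.49, and array 5 was highest. Onecut1 (HNF6), which growth hormone raises, gave 9.004, 8.82, 8.72, 8.71 and 7.55, with array 5 alone low. Etv3, an ETS-family repressor, gave 7.61, 7.46, 8.76, 9.37 and 8.55, and Rgs16, which shortens G protein signals, gave 8.90, 7.81, 9.46, 9.90 and 9.12. Both were lowest on array 2 and highest on array 4. The dose-centred correlation in the dosed arrays was -0.81 for Bcl6 with Onecut1 (rho = -0.78) and 0.75 for Bcl6 with Cxcl1 (rho = 0.73). These too did not pass the adjustment (exact permutation p = 0.00643 and 0.0125; adjusted p = 0.0514 and 0.0556). Gadd45g, Dusp6 and Igfbp2 had SDs of 0.65, 0.56 and 0.59. Growth hormone receptor Ghr (SD 0.04) and Igf1 (SD 0.06) were steady. A growth hormone and STAT5 response list with 14 measured genes was drawn up after values were seen. Of these genes, 3 were among the most variable. On array 5, 5 of the 14 were highest and 4 lowest, where 18.1% of all genes were highest and 18.0% lowest. The list's median deviation on array 5 was 0.003, and its median SD was 0.110. The part of growth hormone in the Bcl6 and Onecut1 values was not tested.

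**Figure D4:**
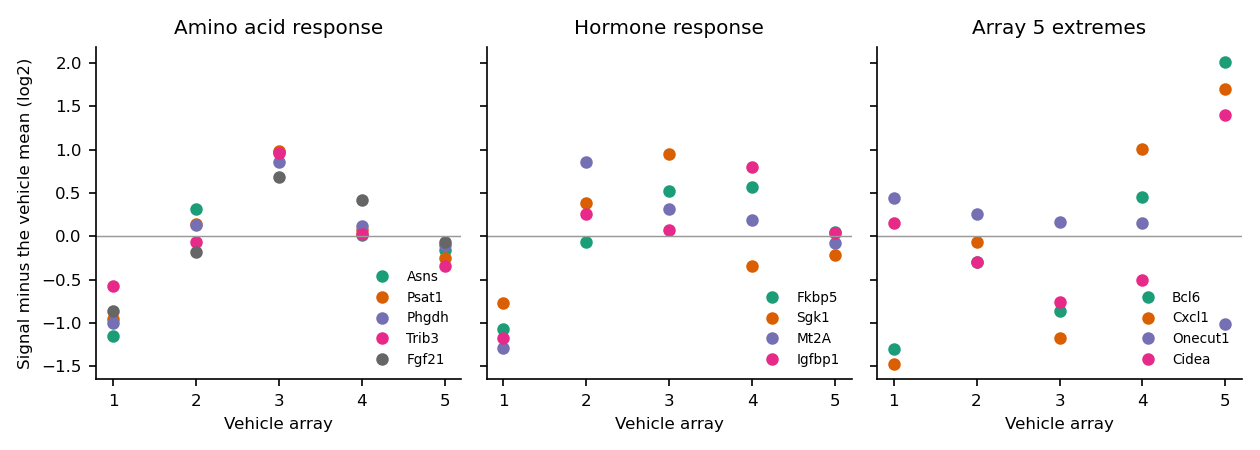
Log2 signal minus the gene's vehicle mean on each of the 5 vehicle arrays, for 5 amino acid response genes (left), 4 hormone-responsive genes (middle) and 4 genes with an extreme value on array 5 (right), chosen after their values were seen. The left genes are all highest on array 3 and lowest on array 1, the middle genes are lowest on array 1, and on array 5 Bcl6, Cxcl1 and Cidea are high while Onecut1 is low.

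Among lipid genes, Pxmp4, a peroxisomal membrane protein, gave 10.21, 8.61, 11.47, 11.68 and 11.14. A second Pxmp4 probe set kept this order, at 9.23, 7.82, 10.05, 10.36 and 9.74. Cyp7a1, which sets the rate of bile acid synthesis from cholesterol, gave 10.54, 9.74, 11.55, 11.82 and 11.38. Pxmp4 and Cyp7a1 ordered the 5 arrays alike, with array 2 lowest and array 4 highest. Scd, stearoyl-CoA desaturase, gave 11.29, 11.82, 12.15, 10.24 and 10.92, and the lipid droplet protein Cidea gave 8.27, 7.82, 7.35, 7.61 and 9.51. Tsku, a secreted leucine-rich protein, gave 10.24, 9.49, 10.81, 9.46 and 8.72. Array 3 was highest for Scd and Tsku and lowest for Cidea. The phosphatidate phosphatase Lpin1 (11.22 ± 0.54) was lowest on array 5. Nceh1 (8.23 ± 0.63) and the mitochondrial carrier Slc25a25 (10.01 ± 0.58) were also counted in this group. Cholesterol synthesis placed 0 of 20 genes in the list, yet 18 of 20 were lowest on array 2 (median deviation -0.41, led by Insig1 with an SD of 0.52), where 24.0% of all genes were lowest.

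Sex-dependent and foreign-compound genes gave the fifth group. Cyp2c12, the female-predominant 2C P450, gave 10.44, 11.48, 12.42, 11.84 and 10.67. Hsd17b6, which oxidises androgen metabolites, gave 10.86, 10.83, 12.33, 10.05 and 10.93, so array 3 was highest for both. Probasin (Pbsn), an androgen-dependent lipocalin, gave 7.70, 9.59, 8.58, 9.82 and 9.68, and the methyltransferase Inmt gave 9.67, 8.11, 7.61, 9.20 and 8.84. The further members were Cyp3a9 (9.42 ± 0.69), Stac3 (10.90 ± 0.61) and the glutathione transferase Gstm2, the gene with the second highest mean in the list (12.22 ± 0.67; 13.10 on array 1 and 11.25 on array 3). Of 54 foreign-compound genes measured, 2 were in the variable list and 6 in the highest-signal list. In the group of other genes the calcium sensor Ncald gave 7.15, 9.27, 8.94, 8.85 and 8.68, with array 1 alone low; Dpt, Retreg1, Zfp354a, Ccdc80, Tstd1, Abcc9, Sppl2a and Prcp had SDs of 0.557 to 0.738.

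Some of these spreads depended on the probe set. Of the 50 genes, 15 had another probe set, and 10 such probe sets of 7 genes had a mean over 8. Of these 10, the highest array was that of the chosen probe set in 4, and 5 had less than 50% of its SD. Pxmp4 was among those that kept the order. Those with another highest array belonged to RT1-Ba, Sppl2a and Lpin1, and the 5 with the small SDs to RT1-Ba and Sppl2a. Most of the dimmer probe sets shared the highest array, such as those of Trib3 (SDs of 0.90 and 0.94). Those of Retreg1 and Sppl2a and the dimmest of Abcc9 did not. At the limits of the rule, Zfp518b (mean 8.001) was just inside and Pitpnm2 (7.999) just outside, and Ppp2r2b, with an SD of 0.702 and a mean of 7.88, missed the list on signal alone.

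The most variable genes were also variable in the dosed groups, which the choice had not used. Same-numbered arrays of different groups tended to go together, so the dosed spread may not be fully separate from that in vehicle. The median pooled SD of the 50 genes within the 5 dosed groups was 0.580, against 0.141 for all genes with a mean over 8. All 50 exceeded that median and 48 exceeded the 90th percentile of 0.275. In each dose group the median SD of the 50 lay above that of all genes with a mean over 8: 0.635 against 0.0985 at 55 mg/kg, and 0.445 against 0.165 at 881 mg/kg. Igfbp1 was more variable in dosed arrays (1.21) than in vehicle arrays (0.72), and Onecut1 too (0.966 against 0.578). Mt2A was the opposite, with 0.169 against 0.796. In all, 13 of 50 had a pooled SD at least as large as in vehicle, and 25 were among the 50 genes with the largest pooled SDs. The 50 were chosen for large vehicle SDs, which favours smaller SDs in other arrays, so the count of 13 does not measure an effect of dosing. The highest-signal genes had a median pooled SD of 0.0572.

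**Figure D5:**
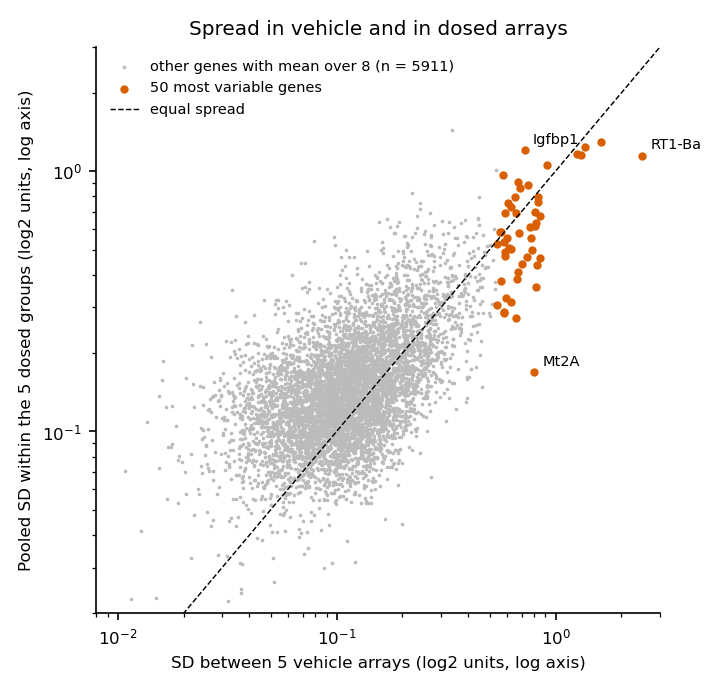
Each point is a gene with a vehicle mean over 8; the axes (both log scales) are the SD between the 5 vehicle arrays and the pooled SD within the 5 dosed groups. The 50 most variable genes (orange) all lie above the overall dosed median of 0.141; Igfbp1 lies above the dashed line of equal spread and Mt2A far below it.

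Finally, each dose was compared with vehicle by limma over all 14217 genes, with Benjamini-Hochberg adjustment and a threshold of 0.05; the 5 comparisons share the vehicle arrays, and the vehicle values that chose the genes enter every comparison: a large SD widens the errors of the variable genes, and a choice by high vehicle mean favours lower calls in the highest-signal list. Of the 50 most variable genes, 2 were called at 55 mg/kg, where 2.68% of all genes were called. At 110 mg/kg 5 were called (3.59% of all genes), at 220 mg/kg 4 (3.43%), at 440 mg/kg 15 (11%) and at 881 mg/kg 16 (19.4%). At 440 mg/kg 7 were higher and 8 lower, where 6.68% and 4.33% of all genes were, and at 881 mg/kg 8 were higher and 8 lower, where 12.6% and 6.82% were. The calls at the 3 lowest doses were Mt2A and Lpin1 at 55 mg/kg, these with Scd, Cyp7a1 and Gadd45g at 110 mg/kg, and Mt2A, Scd, Trib3 and Rgs16 at 220 mg/kg. Gadd45g lost its call without any of vehicle arrays 1 to 4, and Rgs16 at 220 mg/kg without array 4 and with the replicate number as a block. Among genes with a vehicle mean over 8 the shares were 4.11%, 5.33%, 5.27%, 16.1% and 27.3%. Of the 50 highest-signal genes 0, 0, 1, 3 and 8 were called; at an unadjusted p under 0.05 there were 1 and 2 at the lowest doses. Without vehicle array 4 the variable count at 55 mg/kg was 4 (1.55% of all genes in that fit). It was 4 too without replicate 2 of the 881 mg/kg group (4.49%). Without vehicle array 3 the variable count at 220 mg/kg was 7 (2.76%). Without replicate 2 of the 881 mg/kg group the highest-signal count at 881 mg/kg was 4 (11.6%). That count was 12 (2 higher and 10 lower) with centred arrays (19.8%), and 12 with a variance trend (19.3%).

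Mt2A rose at every dose, by 1.45 ± 0.29 (log2 change ± SE) at 55 mg/kg and 1.31 ± 0.29 at 881 mg/kg (adjusted p = 0.0105 and 0.00376), and all 15 dosed arrays lay between 13.80 and 14.41, above the highest vehicle array (13.51). Scd fell by 2.78 ± 0.54 at 110 mg/kg and fell by 3.47 ± 0.54 at 881 mg/kg (adjusted p = 0.00612 and 0.000235). Lpin1 fell by 1.57 ± 0.25 at 55 mg/kg (adjusted p = 0.00225), but at 440 mg/kg it was 0.15 above vehicle (adjusted p = 0.765). Stac3, on a list of male-biased genes, fell by 3.54 ± 0.45 at 881 mg/kg (adjusted p = 3.98e-05), more than its vehicle range of 1.65. Trib3 rose at 220 mg/kg by 2.01 ± 0.33 (adjusted p = 0.00226). At 440 mg/kg Igfbp1 fell by 3.00 ± 0.69 and Zfp354a, a zinc-finger factor, rose by 2.53 ± 0.42 (adjusted p = 0.0082 and 0.000738). Sgk1 fell by 1.77 ± 0.32 at 881 mg/kg (adjusted p = 0.000842). For these 8 genes no omitted vehicle array ended these calls; in fits of vehicle and 1 dose alone Mt2A missed the threshold at 55 and 110 mg/kg (adjusted p = 0.0572 and 0.0583), and so did Cyp7a1 at 110 mg/kg (0.0516).

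In the highest-signal list Car3 changed most at 881 mg/kg: it fell by 1.56 ± 0.26 (adjusted p = 0.000403). Cyp2e1, which oxidises ethanol and small solvents, fell by 0.34 ± 0.08, and Apoa1 and Cyp2c6v1 rose by 0.34 ± 0.07 and 0.47 ± 0.07 (adjusted p = 0.00524, 0.00222 and 0.000272). The 4 others (Cyp2c11, Apoc3, Serpina1 and Itih3) were lower, and their calls were lost without replicate 2 of the 881 mg/kg group. The Serpina1 call (adjusted p = 0.0473) was lost in 8 of 11 alternatives, among them omission of any vehicle array. The Itih3 call (adjusted p = 0.0434) was lost in 7 of 11, among them omission of vehicle array 1, 3, 4 or 5. The call at 220 mg/kg was Cyp2c6v1, which was lost with centred arrays and with the replicate block (adjusted p up to 0.0675). Those at 440 mg/kg were Cyp2c6v1, Apoa1 (higher) and Cyp2e1 (lower). The Apoa1 call (adjusted p = 0.0382) was lost in 7 of 11 alternatives, among them omission of vehicle array 1, 2, 4 or 5. After every array was centred on its own median, the split of highest-signal calls at 440 mg/kg turned from 2 higher and 1 lower to 1 and 2.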

How the data were processed

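The deposited values were log2 expression per probe set of an Affymetrix rat array, summarised by the authors with RMA, per the submitters' processing notes; the RMA version and any scan date or batch are not stated there. RMA sets all arrays to 1 distribution, so differences in total RNA are removed. Of 31099 probe sets, 57 controls were set aside, and 20826 of the other 31042 had 1 gene symbol in the platform annotation, which can be old (436 several, 9780 none, left unnamed); 14167 of 14217 genes matched RefSeq. Unnamed probe sets that would have ranked numbered 10 (signal) and 12 (spread). No vehicle arrays shared more than 0.0161% of values. The number of arrays limits the precision.

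Doses were compared with limma 3.58.1 (lmFit, eBayes) in R 4.3.3 on all 20 arrays, Benjamini-Hochberg adjusted. On simulated data for 881 mg/kg against vehicle (14217 genes) it recovered 93% of changes of size 1 and 66% of size 0.5. The changed genes were drawn from all genes, with normal noise of equal spread in every group. These shares therefore do not describe the most variable genes, whose errors are larger. Correlations used exact permutation within dose groups (7776 arrangements), with Python 3.11.15, SciPy 1.17.1, pandas 2.3.3, NumPy 2.4.6 and matplotlib 3.10.9. The members and lists (29, with 566 of 656 members measured, plus 3 added after values were seen) were chosen with earlier results of these data known. The first 20 genes of each list are given on every array, the others by mean and SD or by the range of their group or list. Genes at the limits, defining cell type markers and at each dose the called members that changed most (at most 5) are named.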

Additional observations from a re-analysis of the deposited data

Results flagged for a closer look

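In 16 of 267 genes (5.99%) a vehicle array stood apart from the other 4 (gap to the nearest over the whole range, above Dixon's 0.71). Chance gives about 1 in 20, but many of these genes were chosen on the same 5 arrays, so the values are descriptions. Low arrays: RT1-Ba on array 5 (0.7699, 5.51 against 10.09 to 11.46), Onecut1 on array 5 (0.7972), Ncald on array 1 (0.7189), the metallothionein Mt1 on array 1 (0.7854), Alb, Apoe and Apoa2 on array 2 (0.7374, 0.7656 and 0.7463), Epcam on array 3 (0.8376), and Cldn4 and Sesn2 on array 4 (0.8344 and 0.9169). High arrays: the clock repressor Nr1d1 on array 2 (0.7890, 7.72 against 6.39 to 6.67), Socs2, Stat5a and Mb on array 1 (0.7818, 0.7953 and 0.7497), the folate enzyme Mthfd2 on array 3 (0.7528) and Apoc3 on array 5 (0.7726). For Alb, Apoc3 and Apoe the SD was under 0.03, so the gap is small in size. By array the 16 fell 5, 4, 2, 2 and 3 on arrays 1 to 5.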

How the results depend on the processing

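The mean of all probe sets of a gene kept 39 of the highest-signal and 40 of the variable genes. Omitting 1 vehicle array kept 38 to 44 of the 50 variable genes and 49 to 50 of the highest-signal genes. Lists of 25 kept 25 of each, which is fixed in advance because they come from the same ranking. A mean threshold of 9 in place of 8 left 3688 genes and kept 31, and the median absolute deviation kept 30. Called counts of variable genes ran over omitted arrays from 2 to 4 at 55 mg/kg, 4 to 6 at 110, 3 to 7 at 220, 11 to 15 at 440 and 11 to 19 at 881 mg/kg, and of highest-signal genes from 0 to 0, 0 to 0, 1 to 1, 2 to 4 and 4 to 7. With vehicle and 1 dose group alone, 3 variable genes were called at 110 mg/kg and 5 highest-signal genes at 881 mg/kg. A variance trend, or genes with a mean over 6, gave 1 highest-signal gene at 110 mg/kg, and centred arrays gave 0 at 220 mg/kg.

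The replicate numbers were not taken as pairs in the main fit. Same-numbered arrays of different groups had a median correlation of 0.137 (lowest -0.12), against -0.0488 for other-numbered arrays. Of 18 arrays, 15 correlated best with their own number, so same-numbered arrays tended to go together across groups. The dosed spread may therefore not be fully separate from the vehicle spread, and the permutations took no account of the numbers. With the replicate number as a block, 3, 7, 4, 15 and 14 variable genes were called from the lowest to the highest dose. For the highest-signal genes these counts were 0, 0, 0, 2 and 5. Of all genes, that fit called 1.97%, 2.50%, 2.28%, 10.2% and 18.1%. Without the 881 mg/kg group the variable genes' median pooled SD was 0.575.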

Other observations

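Gene lists outside the report's groups also had an array of their own. Cell cycle genes were highest on array 5 in 19 of 32 (median deviation 0.23; Mki67, a proliferation marker, had 5.15 ± 0.50), where 18.1% of all genes were highest. Fasting and gluconeogenesis genes were lowest on array 5 in 12 of 25, where 18.0% of all genes were lowest. Red cell genes were highest there in 3 of 4, with a median deviation of 0.52. Circadian genes had a median SD of 0.241, with Usp2 (SD 0.65) and Nr1d1 (SD 0.55) the most variable. Urea cycle and amino acid breakdown genes were steadier, with a median SD of 0.106.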
